A study of Mus musculus with 8 samples.

Results

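Keratins are the intermediate filament proteins of epithelial cells, and 10 keratin genes were followed here in murine pancreatic ductal adenocarcinoma (PDAC) cells treated with the MEK inhibitor trametinib. The members are Krt5, Krt7, Krt8, Krt14, Krt17, Krt18, Krt19, Krt20, Krt23 and Krt36, taken by symbol from a table of 34478 genes that lists 48 keratin symbols. Of the 10, 7 encode type I keratins (Krt14, Krt17, Krt18, Krt19, Krt20, Krt23 and Krt36) and 3 encode type II keratins (Krt5, Krt7 and Krt8). RNA came from 4 primary PDAC cell lines, numbered #1, #3, #5 and #10, each given trametinib (MEKi) for 48 h or DMSO, the solvent, as control. This gave 1 library per line and treatment, 8 in all. All lines come from the same engineered mouse model, in both treatments, with the alleles Ptf1a wt/Cre and Trp53 loxP/loxP among those listed, so Cre is expressed from the locus of a pancreatic progenitor and acinar gene and removes p53. Each line received trametinib at its own IC50, a drug concentration of half-maximal effect, so the dose was set for each line separately and is not given in the sources used here. The lines are the only replicates. Treatment p-values set the mean change against the spread of that change between these 4 lines, with differences in level between lines taken out.

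A keratin filament is built from pairs of 1 type I (acidic) and 1 type II (neutral to basic) chain, so neither type forms a filament alone, and unpaired chains are usually degraded. Simple epithelia such as pancreatic ducts rely on Krt8 with Krt18, joined in ducts by Krt7 and Krt19, which serve as ductal and PDAC markers. Krt20 and Krt23 are type I keratins of simple epithelia, the first typical of differentiated intestinal cells and the second known as an inducible gene of pancreatic cancer cells. Krt5 with Krt14 is the pair of basal cells in stratified epithelia, Krt17 appears in skin appendages, wounds and tumours, and Krt36 belongs to the keratins of hair and nail.

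The deposited values are normalized counts, a signal scaled so that libraries can be compared. They summed to 30680091 to 36385719 per library, and the step between low values put the depth at about 29260731 to 45893460 reads, so that 3 reads corresponded to 2.33 to 3.73 normalized counts. Of 10 tested target genes of MAPK signalling, the pathway of MEK, 9 fell with trametinib, against 25.6% of all genes tested. Among them were Dusp6 (log2 fold change -2.51, adjusted p = 0.000123 by limma) and Etv4 (-5.92, adjusted p = 0.000201). Epha4 was higher in 4 of 4 lines and missed the threshold (0.87, limma adjusted p = 0.0504), and some alternatives called 1 gene of this list higher. Of the markers for the epithelial label, Cdh1, the adhesion receptor E-cadherin, stood at 19630 to 28487 normalized counts, whereas Epcam, another ductal marker, was listed at 0 in 6 of 8 libraries and at 10.4 and 3.75 in the DMSO and trametinib libraries of line #3.

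Keratin transcripts were abundant in these lines, and most of those tested fell with trametinib. The 10 members together took 0.618% to 0.899% of the normalized counts of a DMSO library (median 0.714%) and 0.296% to 0.588% of a trametinib library (median 0.521%). Genes with a mean of at least 10 over the 8 libraries were tested with limma on log2(normalized count + 1). The model held the line as a blocking term, and p-values were adjusted by Benjamini-Hochberg over the 15888 genes that passed. Of the 10 members, 8 passed this minimum, and 7 of those 8 fell after trametinib (limma adjusted p below 0.05), against 25.6% of all genes tested. None of the 8 was higher, against 27.3% of all genes, and 6 of them were lower in 4 of 4 lines, as were 30.9% of all genes. Both low members, Krt5 and Krt17, were left untested, and Krt36 passed the minimum through its DMSO libraries alone. The median log2 fold change of the 8 tested members was -0.78, against 0.07 for all genes tested. Over all genes 4341 were higher and 4075 lower, and rescaling the libraries to equal totals gave 5315 and 3284 and moved the median of all genes to 0.20. These are bulk libraries, so fewer cells with a keratin and less keratin mRNA per cell cannot be told apart.

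**Figure D1:**
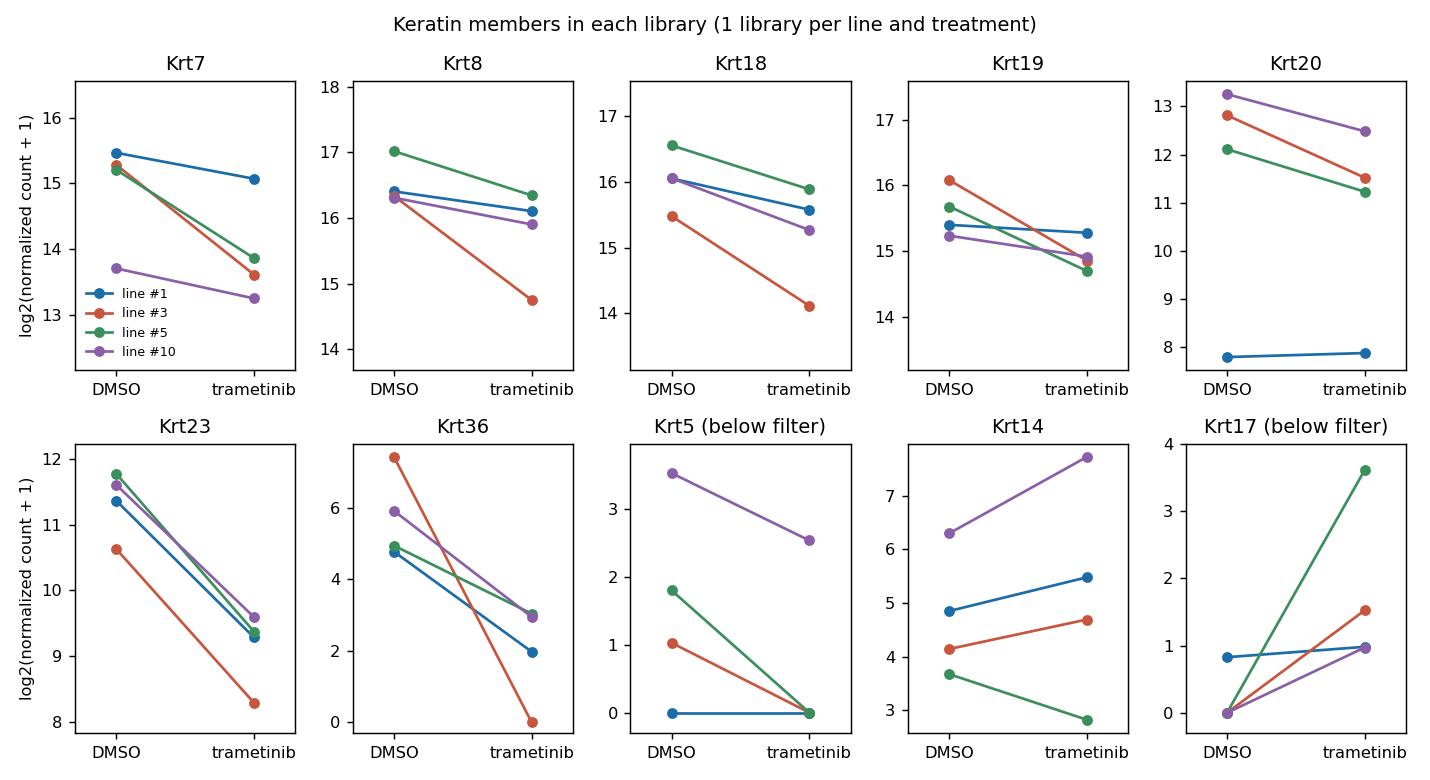
Normalized counts of the 10 keratin members on the log2(value + 1) scale in DMSO and trametinib, each coloured line joining the 2 libraries of 1 cell line, with a separate vertical range in each panel. Krt23 and Krt36 have every trametinib point below every DMSO point, Krt20 is low in both libraries of line #1, and Krt14 is higher with trametinib in 3 of 4 lines.

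Krt8 (ENSMUSG00000049382, chr15:101996698-102004482, minus strand), the main type II chain of simple epithelia, had the highest mean normalized count of the members. Positions here and below are those of GENCODE on GRCm38. Krt8 had DMSO and trametinib values of 86732 and 70442 normalized counts (line #1), 82577 and 27587 (line #3), 132484 and 83194.5 (line #5) and 81134 and 61232 (line #10). It was lower in 4 of 4 lines, but the groups overlapped, because the treated library of line #5 stood above the DMSO libraries of lines #3 and #10. The limma estimate was a log2 fold change of -0.74 (SE 0.22, adjusted p = 0.0284). Among all genes of the table Krt8 ranked 10th to 88th by normalized count, and the rank of 88 was that of treated line #3.

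Krt18 (ENSMUSG00000023043, chr15:102028180-102032027, plus strand), the type I partner of Krt8, had DMSO and trametinib values of 68045 and 48943 (line #1), 45666 and 17761 (line #3), 96354 and 60668 (line #5) and 68157 and 39519 (line #10). Line #3 was lowest and line #5 highest in both treatments, and the groups overlapped. The log2 fold change was -0.82 (SE 0.16, adjusted p = 0.00543).

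Krt19 (ENSMUSG00000020911, chr11:100140810-100148665, minus strand), a short type I keratin without the usual tail domain and a standard duct marker, had DMSO and trametinib values of 43252 and 39784 (line #1), 69253 and 29675 (line #3), 52464 and 26578 (line #5) and 38557.5 and 30947 (line #10). Line #3 had the highest DMSO value, yet after treatment it was among the lower libraries, while line #1 kept 92.0% of its level and ended above the DMSO library of line #10. The log2 fold change was -0.66 (SE 0.20, adjusted p = 0.0287).

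Krt7 (ENSMUSG00000023039, chr15:101411043-101430313, plus strand), the second type II keratin of ducts, had DMSO and trametinib values of 45211 and 34401 (line #1), 39792 and 12517 (line #3), 37738 and 14891 (line #5) and 13351.5 and 9734 (line #10). Line #10 was low throughout, its DMSO library lying below the treated libraries of lines #1 and #5, so the groups overlapped. The log2 fold change was -0.97 (SE 0.23, adjusted p = 0.0117).

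For these 4 ductal keratins the fall was deepest in line #3, with per-line log2 changes of -1.67 for Krt7, -1.58 for Krt8, -1.36 for Krt18 and -1.22 for Krt19. It was shallowest in line #1, with -0.39, -0.30, -0.48 and -0.12 for the same genes. Whether lines differ in their response could not be tested with 1 library per line and treatment. Some of these calls passed the threshold with 4 lines and not with 3. Without line #5 the log2 fold change was -0.84 for Krt7 (limma adjusted p = 0.0529), -0.76 for Krt8 (0.0790) and -0.55 for Krt19 (0.116), and without line #3 it was -0.47 for Krt19 (0.0501). Without line #3 the estimate for Krt8 was -0.46, and its call held. With libraries rescaled to equal totals, Krt8 had an adjusted p of 0.0537 and Krt19 of 0.0564.

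Krt23 (ENSMUSG00000006777, chr11:99477974-99493137, minus strand) showed the most even fall of the tested members, with an SD of 0.19 between the log2 changes of the 4 lines. It had DMSO and trametinib values of 2631 and 622 (line #1), 1579 and 312 (line #3), 3493 and 662 (line #5) and 3109.7 and 771 (line #10). Every treated library lay below every DMSO library, a separation shared by 2 of the 8 tested members (Krt23 and Krt36) and by 16.2% of all genes tested. The level was 4.23-fold, 5.07-fold, 5.28-fold and 4.03-fold lower in lines #1, #3, #5 and #10, which left 18.9% to 24.8% of the DMSO level. The log2 fold change was -2.21 (SE 0.11, adjusted p = 9.44e-05), which placed Krt23 35th by p-value among the 15888 genes. Its call held under all 13 alternatives tried, with limma adjusted p of at most 0.00290.

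Krt20 (ENSMUSG00000035775, chr11:99428403-99438150, minus strand), whose gene lies 39823 bases from Krt23 with no other listed keratin between them, had DMSO and trametinib values of 219.5 and 233 (line #1), 7209 and 2933 (line #3), 4421 and 2394 (line #5) and 9779 and 5727 (line #10). Line #1 held little Krt20 and showed no fall, while the 3 other lines kept 40.7%, 54.2% and 58.6% of the DMSO level. The DMSO libraries differed 44.5-fold between the highest and the lowest line. Over the 4 lines the log2 fold change was -0.72 (SE 0.21, adjusted p = 0.0253). With 3 lines it missed the threshold without line #3 (-0.52, limma adjusted p = 0.0576), without line #5 (-0.66, 0.0896) and without line #10 (-0.70, 0.0781).

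Krt36 (ENSMUSG00000020916, chr11:100102007-100105626, minus strand) was scarce in DMSO and close to the detection limit with trametinib. It had DMSO and trametinib values of 26.4 and 2.93 (line #1), 171 and 0 (line #3), 29.8 and 7.22 (line #5) and 59.4 and 6.73 (line #10), with no overlap between groups. The treated libraries correspond to about 3, 0, 9 and 7 reads. The level in line #3 was at least 48.5-fold lower by the exact 95% limit, and 60.3-fold lower with the treated library set at the floor of 3 reads. In line #1 it was 9.02-fold lower, with an exact 95% interval of 2.84 to 45.9, in line #5 4.13-fold lower (1.85 to 10.1) and in line #10 8.81-fold lower (4.03 to 22.8). The folds of lines #1, #5 and #10 and the 95% limits were computed from reads rounded to whole numbers. These intervals cover counting error only. The fitted log2 fold change was -3.77 (SE 0.88, adjusted p = 0.0109), and its size depends on the pseudocount, with -4.76 at 0.1 and -2.77 at 5, and on line #3, without which it was -2.56. Its call held in the 12 alternatives that tested it.

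**Figure D2:**
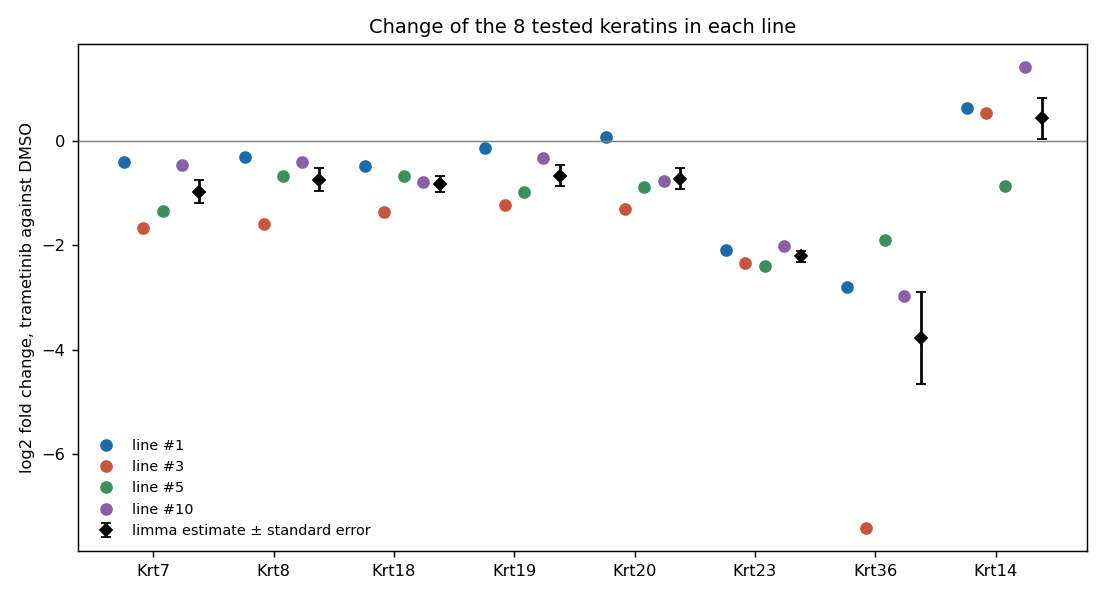
Log2 fold change of trametinib against DMSO for the 8 tested keratins, with 1 coloured point per line and the limma estimate with its standard error as a black diamond. The 4 lines lie close together for Krt23, from -2.40 to -2.01, line #3 shows the deepest fall of the ductal keratins, and the point of line #3 for Krt36 is a fold against a library listed at 0 and depends on the pseudocount.

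The basal keratins were scarce beside the ductal ones, and Krt5 and Krt17 lay near the detection limit. Krt14 (ENSMUSG00000045545, chr11:100203162-100207548, minus strand) had DMSO and trametinib values of 27.9 and 43.7 (line #1), 16.7 and 24.9 (line #3), 11.7 and 6.07 (line #5) and 77.9 and 211 (line #10). Its values were up in 3 of 4 lines and down in line #5, and the log2 fold change of 0.44 (SE 0.40) missed the threshold (adjusted p = 0.386 by limma). It was 0.87 without line #5 and 0.11 without line #10, and with quantile normalization it changed sign to -0.055.

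Krt5 (ENSMUSG00000061527, chr15:101707070-101712898, minus strand), the type II partner of Krt14, was listed at 0 in 4 libraries and lay at or under the 3-read floor in 6. Its values were 0, 1.04, 2.48 and 10.5 in the DMSO libraries of lines #1, #3, #5 and #10 and 0, 0, 0 and 4.81 after trametinib. Line #10, which also had the most Krt14, was the only one with Krt5 above the floor. Krt17 (ENSMUSG00000035557, chr11:100256217-100261029, minus strand) was at or under the floor in 7 libraries, with 0.774, 0, 0 and 0 in DMSO and 0.975, 1.88, 11.2 and 0.960 with trametinib. The exception was treated line #5, whose DMSO library had a floor of 3.73. No change of Krt5 or Krt17 was tested.

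The lines also differed from each other in which keratins they made. A limma F-test of the line term called 5 of the 8 tested members, against 27.6% of all genes tested: Krt20 (adjusted p = 0.000737), Krt23 (0.00846), Krt14 (0.0182), Krt18 (0.0216) and Krt7 (0.0332). Krt8 (adjusted p = 0.107), Krt19 (0.616) and Krt36 (0.873) were not called. In DMSO the highest line exceeded the lowest 1.63-fold for Krt8, 1.80-fold for Krt19, 2.11-fold for Krt18, 2.21-fold for Krt23, 3.39-fold for Krt7 and 6.64-fold for Krt14. Without line #10 the number of members called by this test was 3.

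Levels of different genes were compared per kilobase of the longest protein-coding mRNA in the basic set of GENCODE. Krt8, at 48893 ± 12572 normalized counts per kb in DMSO (SD, n = 4), and Krt18, at 48403 ± 14448, were at the same level within their spread. Krt19 followed at 32285 ± 8592 and Krt7 at 8311 ± 3453, and below them came Krt20 at 2806 ± 2124 and Krt23 at 1727 ± 529, a pair whose spreads overlap. Krt36 (42.9 ± 40.6) and Krt14 (19.8 ± 17.9) overlapped too, and Krt5 (1.60) and Krt17 (0.125) were last. In trametinib the order of the leading members was kept, with Krt8 at 30957 ± 12149, Krt18 at 29035 ± 12642, Krt19 at 20143 ± 3594, Krt7 at 4369 ± 2738, Krt20 at 1464 ± 1173 and Krt23 at 378 ± 126 normalized counts per kb. This is the order of the means, and single lines departed from it. Krt19 was the highest keratin of line #3 in both treatments, at 43943 per kb in DMSO against 42174 for Krt8. In both treatments Krt20 lay below Krt23 in line #1, at 114 against 1681 per kb in DMSO. Krt18 exceeded Krt8 in the DMSO libraries of lines #1 and #10.

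The mean shares of Krt8, Krt18 and Krt19 in the pool differed less between treatments than between lines, while the summed level was lower with trametinib in 4 of 4 lines. Krt8 took 34.0% ± 2.27 of the summed level per kb in DMSO and 34.9% ± 4.97 in trametinib (SD, n = 4), Krt18 33.8% ± 6.60 and 32.4% ± 6.06, and Krt19 23.0% ± 6.85 and 25.2% ± 9.08. The share of type II chains was 39.9% ± 2.87 in DMSO and 40.0% ± 4.07 in trametinib, and its change was smaller than the spread between lines. The ratio of Krt8 to Krt18 per kb ranged from 0.874 to 1.33 in DMSO and from 1.006 to 1.14 in trametinib. The share of Krt23, in contrast, went from 1.22% ± 0.347 to 0.440% ± 0.0964, and that of Krt36 from 0.0319% ± 0.0314 to 0.00262% ± 0.00219. Within lines, the log2 ratio of Krt7 to Krt19 changed by -0.27, -0.45, -0.36 and -0.14 in lines #1, #3, #5 and #10, a mean of -0.30 ± 0.13 (SD, n = 4) that was not tested. Krt7 depends on the gene model used. Its longest mRNA in GENCODE measures 4094 bases, whereas exons tagged there as principal cover 1586 bases within the RefSeq bounds. With lengths trimmed in this way its share in DMSO was 12.8% in place of 5.85%. The type II share was then 44.6% in DMSO and 44.2% in trametinib.

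**Figure D3:**
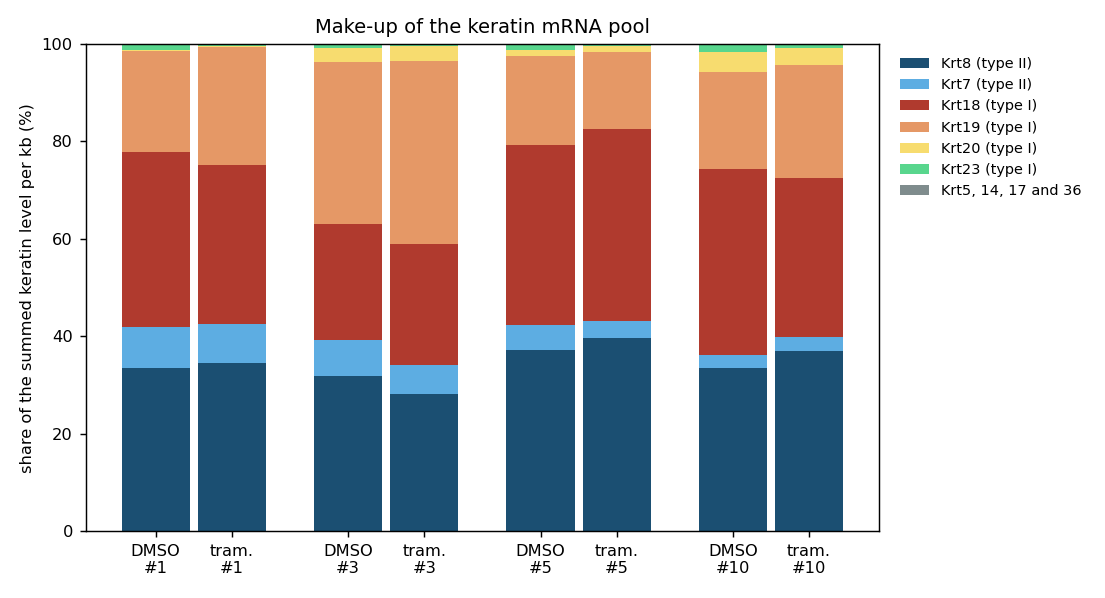
Share of each keratin in the summed normalized count per kb of the 10 members, in percent, for the DMSO and trametinib (tram.) library of each line. Blue shades are type II and the other shades type I. The blue part lies between 34.2% and 43.2% in the 8 libraries, and the orange part, Krt19, is largest in line #3.

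The members sit in 2 clusters. Chromosome 11 holds the type I cluster, with 24 of the 48 keratin symbols and 6 members, and chromosome 15 holds the type II cluster with the other 24 and 4 members, among them Krt18, the type I gene that lies 23697 bases from Krt8. Over the 8 libraries the log2 levels of Krt8 and Krt18 correlated at r = 0.97 (Pearson, description only, since the libraries share lines and treatments). Seen from Krt8, Krt18 ranked 26th by likeness among 15887 other genes, and the genes nearest to Krt8 were Psmd13, Nfu1 and Fdx1l. Seen from Krt18, Krt8 ranked 39th, after Trmt2a, Dicer1 and Twf2 at the top. Krt7 and Krt19 correlated at r = 0.78. Krt20 and its neighbour Krt23 correlated at r = 0.14, and the genes nearest to Krt23 were Sumo2, Map2k3 and Ppid.

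The sequences before the start sites are shown for the neighbours Krt8 and Krt18, for the neighbours Krt20 and Krt23, and for Krt36. They are RefSeq promoter windows on GRCm38, read 5′ to 3′ on the strand of the gene. Each is limited to the bases upstream of both the RefSeq start used and the GENCODE start. For Krt36 that start is 100105626, and the printed bases lie inside the RefSeq gene bounds (100102012 to 100109487). The intervals are chr15:102004483-102004592 (minus strand) for Krt8, chr15:102027966-102028179 (plus) for Krt18, chr11:99438154-99438403 (minus) for Krt20, chr11:99493138-99493370 (minus) for Krt23 and chr11:100105627-100105876 (minus) for Krt36. Capitals mark CACCC (a KLF-type motif, GGGTG on the other strand) and TATAAA, the TATA box.
Krt8: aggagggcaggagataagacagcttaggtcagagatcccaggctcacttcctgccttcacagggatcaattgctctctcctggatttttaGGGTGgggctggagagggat
Krt18: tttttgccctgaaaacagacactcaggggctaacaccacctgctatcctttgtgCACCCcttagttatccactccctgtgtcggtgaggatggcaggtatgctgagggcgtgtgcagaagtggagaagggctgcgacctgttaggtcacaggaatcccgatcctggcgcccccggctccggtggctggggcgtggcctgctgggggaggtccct
Krt20: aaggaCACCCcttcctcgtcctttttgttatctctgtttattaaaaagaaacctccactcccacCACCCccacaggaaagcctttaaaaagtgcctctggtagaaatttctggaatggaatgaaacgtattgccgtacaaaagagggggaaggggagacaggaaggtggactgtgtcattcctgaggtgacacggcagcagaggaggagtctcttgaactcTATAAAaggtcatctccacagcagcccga
Krt23: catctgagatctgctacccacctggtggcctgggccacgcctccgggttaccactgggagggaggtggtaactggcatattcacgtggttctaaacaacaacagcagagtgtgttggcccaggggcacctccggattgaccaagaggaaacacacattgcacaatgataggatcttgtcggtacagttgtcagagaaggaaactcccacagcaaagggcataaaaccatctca
Krt36: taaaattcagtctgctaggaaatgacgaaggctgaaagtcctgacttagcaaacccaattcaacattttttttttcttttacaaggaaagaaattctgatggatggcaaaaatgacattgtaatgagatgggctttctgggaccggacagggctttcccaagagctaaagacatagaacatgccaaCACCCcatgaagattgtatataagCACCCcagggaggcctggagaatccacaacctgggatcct

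Windows from 250 bases before to 50 bases after the RefSeq start were found for 8 of the 10 members. Krt17 and Krt19 had no entry. For Krt7 and Krt14 the RefSeq start used (101412403 and 100206030) lies inside the GENCODE gene, which starts at 101411043 and 100207548. Their windows therefore hold 0 bases upstream of both starts, and matches in them lie within the GENCODE gene. Both strands were searched, and matches of different motifs did not overlap in these windows. CACCC was found in 7 of the 8 windows, against 57.5% of all 32851 windows, and Krt23 was the member without it. TATAAA was found in 2, against 13.6% of all windows: in Krt20 at -29 to -24 from the start, and in Krt8 at the RefSeq start itself, where matches on both strands overlap each other. GGGCGG, an SP1-type motif, was found in Krt7 (35.7% of all windows) and CCGGAA, an ETS-type motif, in Krt14 (14.9%). TGANTCA, the AP-1 motif (7.81%), and the SRF motif (0.0639%) were found in none of the 8 windows. A match is a string of letters and not a binding site, and its absence applies to this window only.

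Most other keratin genes were silent or close to it, and 6 of the 10 tested fell, against 25.6% of all genes tested. Of the 38 other keratin symbols, 28 stayed below the minimum, 7 of these at 0 in all libraries, and none of the 28 passed 22.6 normalized counts in any library. None of the 10 tested was higher. The type I genes Krt13, of mucosal suprabasal cells, and Krt12, of the cornea, changed by -3.64 (limma adjusted p = 0.000947) and -1.21 (0.00801) on the log2 scale, and Krt10, Krt15 and Krt16 were not called. Among type II genes, the log2 fold change was -3.23 for Krt79 (adjusted p = 0.00137), -3.07 for Krt78 (0.000978), -2.25 for Krt6a (0.0101), which passed the minimum through its DMSO libraries alone, and -1.37 for Krt4, the partner of Krt13 (0.0257). Krt13 ranged from 64.4 to 852 in DMSO and from 5.74 to 34.8 with trametinib. Each treated library lay below each DMSO library. Krt80 had the highest normalized counts of the keratins outside the members, at a mean of 2324 in DMSO and 2084 with trametinib, and was not called (log2 fold change -0.20). In all, 13 of the 18 tested keratins were lower, Krt6a and Krt36 among them.

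Of 14 tested desmosome, hemidesmosome and plakin genes, which anchor keratins at junctions, 7 rose and 5 fell, against 27.3% and 25.6% of all genes tested, with a median log2 fold change of 0.42. The desmosomal cadherin Dsg2 rose by 1.65 (adjusted p = 0.00108 by limma), the armadillo protein Jup by 1.03 (0.00109) and desmoplakin, Dsp, which ties keratins to desmosomes, by 0.81 (0.0310). Among the falls, the hemidesmosome integrin Itga6 had -1.77 (0.000143), plakophilin Pkp3 -1.39 (0.00838) and the linker plectin, Plec, -0.85 (0.00115). Without line #1 the number that rose was 4. Of 8 tested proteins that bind or turn over keratins, 4 rose, led by Sfn, the 14-3-3 sigma adaptor, at 3.07 (0.000330), and Klhl24, a ubiquitin ligase adaptor for keratins, at 2.79 (9.65e-05). Pnn and Fam83h fell, with -0.43 (0.00465) and -0.27 (0.0416), and 1 of these calls was lost when any of the 4 lines was left out.

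Of 10 tested genes for other intermediate filaments, 5 fell and 1 rose, against 25.6% and 27.3% of all genes tested, with a median log2 fold change of -0.88. Vimentin, Vim, the filament of mesenchymal cells, had DMSO and trametinib values of 77831 and 46457 (line #1), 46992 and 31314 (line #3), 88983 and 42092 (line #5) and 89101 and 54384 (line #10). Its log2 fold change of -0.78 (SE 0.12, adjusted p = 0.00230) stands beside -0.74 for Krt8. The lamins of the nuclear envelope fell as well, with -1.15 for Lmnb1 (adjusted p = 0.000989 by limma) and -1.02 for Lmna (0.00171), as did the lens filament gene Bfsp1, with -1.77 (0.00181). The rise was that of the neuronal Prph, 0.77 (0.0231), a call lost without line #1, #5 or #10.

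Of 19 tested markers of epithelial identity, 3 rose and 7 fell, against 27.3% and 25.6% of all genes tested, with a median of -0.12, and the estimate for Cdh1 was -0.02 (limma adjusted p = 0.881). The tight junction claudin Cldn4 rose by 4.61 (0.000965), while Cldn7 fell, with -1.96 (0.00107), and so did Cldn3, with -1.70 (0.0165). Without line #1 the number that rose was 1, and without line #5 the number that fell was 4. Of the 9 tested ductal markers, 4 of which are members, 7 fell, among them Cftr with a log2 fold change of -2.28 (0.000335).

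**Figure D4:**
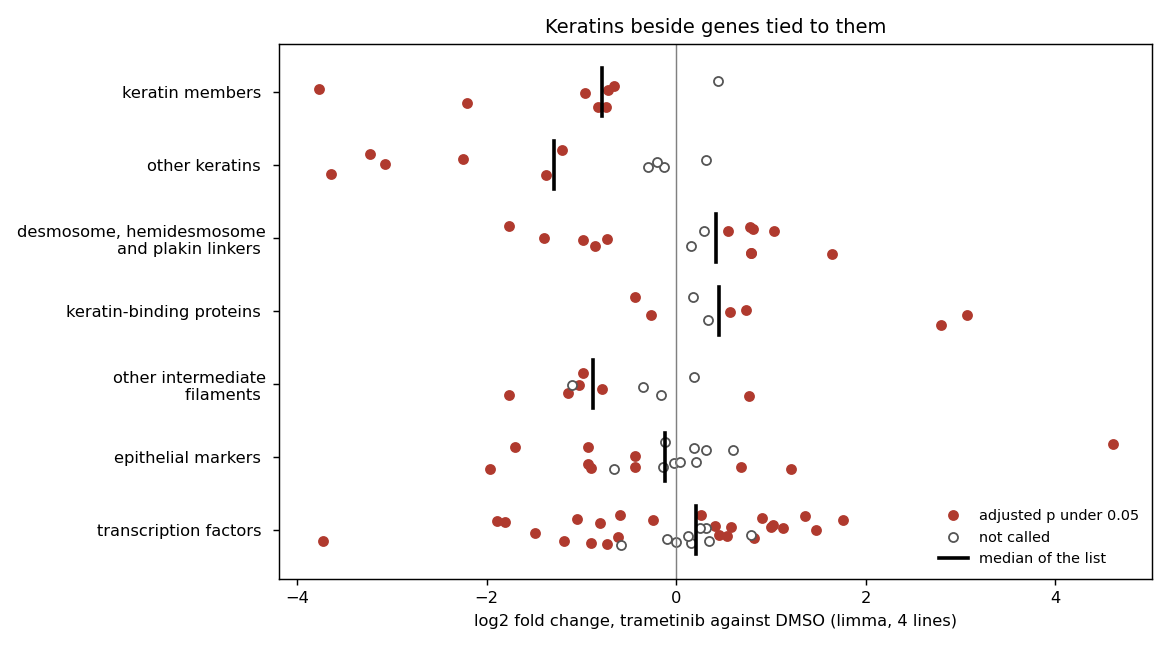
Log2 fold change of trametinib against DMSO for each tested gene of 7 gene groups, with filled red points for genes called by limma, open points for the others and a black bar at the median of each group. The medians are -0.78 for the members and -0.88 for other intermediate filaments, against 0.42 for the linkers of junctions and -0.12 for epithelial markers.

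Markers of other cell types were examined in the same libraries, where 27.3% of all genes tested rose and 25.6% fell. Of 8 mesothelial markers 7 were tested and 5 rose, and their summed level ranged from 40130 to 47447 normalized counts in DMSO and from 60726 to 115339 in trametinib, most of it from Msln, which is also made by PDAC cells. Upk3b (log2 fold change 3.37, limma adjusted p = 0.000879) and Nkain4 (2.86, 0.000655) rose most. Wt1, a defining mesothelial factor, was at 8.77 to 27.3 and Muc16 at 0 to 3.48. Of 5 tested fibroblast markers 1 rose, Col1a1 (log2 fold change 3.60, adjusted p = 0.000872 by limma), with a sum of 96.9 to 369 in DMSO and 440.0 to 1260 in trametinib and Lum at 0 in all libraries. Of 4 tested immune markers 1 rose, Csf1r, with a sum of 150.1 to 241 and 236 to 516. Of 4 tested endothelial markers 2 rose, Vwf and Tek, the latter having passed the minimum through its trametinib libraries alone, with a sum of 38.1 to 82.9 and 75.5 to 1779. Of 2 tested acinar markers 1 fell, Cela1, with a sum of 58.2 to 285 and 37.6 to 161, and the only tested endocrine marker, Pdx1, also a pancreatic progenitor factor, fell, with a list sum of 1308 to 1767 and 521 to 738. Their part in the keratin changes was not tested.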

How the data were processed

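RNA was measured in 8 libraries of murine PDAC lines (stranded mRNA kit, paired reads). What the authors deposited is a normalized count for every gene, that is, a signal corrected for library size. Per the labels, their notes name CASAVA 2.17, Salmon 0.12, DESeq2 1.18 and mm10, without roles. Values under 8 were whole multiples of 1 read in 61.7% to 71.2% of cases (tolerance 0.05 of a step), so whole reads were not recovered and count tests were not run.

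Values were tested as log2(value + 1) with limma 3.58.1 in R 4.3.3 (mean-variance trend, line as a block, mean of at least 10, threshold 0.05, two-sided). Fold changes are on that scale, which understates changes of low genes. The fit was tested on simulated data. Both libraries of a line are paired by the line number in the labels, and their deviations from treatment means correlated at 0.63 to 0.72. Positions, mRNAs and lengths came from GENCODE M21 on GRCm38 and promoter windows from RefSeq, matched by symbol. Levels per kb used the longest mRNA, and lengths within RefSeq bounds used exons tagged as principal. Exons of Krt5, Krt7 and Krt8 overlap genes on the opposite strand, and whether counting used strand is not given in the sources used here. The row Krt8-ps, a pseudogene, reached 6.22 normalized counts. Tables and plots were made with Python 3.11.15, numpy 2.4.6, pandas 2.3.3, scipy 1.17.1 and matplotlib 3.10.9.

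The members and gene lists were chosen with earlier results of these data known. Named genes are the members, other keratins that passed the minimum, and of each other list up to 2 of the largest rises and falls called in the same direction in 4 of 4 lines. Cdh1, Epcam, Dsp, Plec, Vim, Lmna, Msln, Wt1, Muc16, Lum, Trp63, Fosb, Fosl2, Junb, Jund, Dusp6, Epha4 and the nearest genes by correlation were named in addition. Alternatives were pseudocounts of 0.1 and 5, equal totals, quantile normalization, centring on the median, no filter, a mean of at least 50, no block, no trend, and leaving out each line. Lengths within RefSeq bounds were added after seeing the data. An allele of the mouse model and a marker gene are not reported here.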

Additional observations from a re-analysis of the deposited data

Results flagged for a closer look

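Of 38 groups of 4 libraries examined for a library far from the others, 5 stood out by Dixon's test. Chance alone would give about 1.9, but that figure cannot be set against these 5. The trametinib Krt5 and DMSO Krt17 groups hold 3 libraries at 0, where a single value above 0 always stands out. The summed level also contains Krt8. The DMSO library of line #5 was high for Krt8, at 132484 normalized counts, and for the summed keratin level, at 181775 normalized counts per kb. The treated library of line #10 was high for Krt5, at 4.81, and that of line #5 for Krt17, at 11.2. The DMSO library of line #1 was the only one above 0 for Krt17, at 0.774, which is less than the 3-read floor.

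In 2 members a single line went against the others. The log2 fold change of Krt14 was -0.85 in line #5 and 0.63, 0.55 and 1.43 in lines #1, #3 and #10. For Krt20 it was 0.083 in line #1 and -1.30, -0.88 and -0.77 in lines #3, #5 and #10. Neither difference was tested, since each line has 1 library per treatment.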

How the results depend on the processing

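No alternative called a tested member higher, and the estimates of the 7 falling members kept their sign in the alternatives that tested them. The number of members called lower was 7, and it was 2 with no replicate block for the line (Krt23 and Krt36), 4 with eBayes without trend, and 3 to 7 when each line was left out in turn, the lowest without line #5 (Krt18, Krt23 and Krt36). The number differing between lines was 5, and it was 3 with eBayes without trend and 3 to 5 when each line was left out. Over all genes, 4341 were higher and 4075 lower, and 2205 and 2347 without the block, while 4391 differed between lines, 1879 without the trend and 2028 to 4558 with a line left out. Without the pairing by line the limma adjusted p was 0.159 for Krt7, 0.143 for Krt8, 0.141 for Krt18, 0.0504 for Krt19 and 0.718 for Krt20. Without the trend it was 0.0598 for Krt8, 0.0638 for Krt19 and 0.0640 for Krt20, and with quantile normalization 0.0649 for Krt8 and 0.108 for Krt19. The log2 fold change of Krt14 became -0.055 with quantile normalization (adjusted p = 0.929). Without the block, 0 of the tested epithelial markers fell and 1 rose, against 7 and 3 with it. Among the keratins outside the members, 1 type I and 2 type II genes were then called lower, against 2 and 4. The number of MAPK targets called lower stayed at 9. The cause of these shifts was not tested. Depth limits Krt5, Krt17 and treated Krt36.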

Other observations

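Of 34 tested transcription factors known to act on keratin or epithelial genes, 13 rose and 12 fell, against 27.3% and 25.6% of all genes tested, with a median log2 fold change of 0.21. Within the AP-1 family, Fosl1 fell, with an estimate of -3.73 on the log2 scale (adjusted p = 0.000306 by limma). Fos fell by the same test, with -1.89 (0.00103), and Fosb with -1.19 (0.0119). Jun rose by 1.76 (0.00384), Fosl2 by 1.36 (0.000318), Jund by 1.02 (0.00203) and Junb by 0.41 (0.0295). Grhl3, an epidermal differentiation factor, rose by 1.48 (0.00122).

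Of 14 tested basal and squamous genes, 3 rose and 5 fell, against the same shares of all genes, and the falls include Krt6a, which passed the minimum through its DMSO libraries alone. The list had a median of -0.43. The laminin chain gene Lamb3 rose by 1.68 (adjusted p = 0.000400 by limma) and the P-cadherin gene Cdh3 by 1.29 (0.0165), while Serpinb5, the maspin gene, had -3.65 (0.00146). Trp63, the master regulator of basal cells, was below the minimum in these libraries, at 0.571 to 4.14 normalized counts.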
